A study of Mus musculus with 5 samples.

Results

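Reelin signalling was followed through single cells of the mouse rhombic lip with 4 genes, which are 4 of the 15971 genes measured and were taken by name. Reln encodes the secreted ligand reelin, Vldlr and Lrp8 (also called ApoER2) encode its receptors, and Dab1 encodes the adaptor inside the receiving cell. The series asks where in the rhombic lip medulloblastomas of Groups 3 and 4 arise, and its 5 libraries were made with 10x Chromium 3′ kits from cerebellar tissue. They form 3 groups by title: 1 EomesCreER library at embryonic day 16 (e16), 2 RL libraries at e14 and 2 RL libraries at e13, where RL is read as rhombic lip. Every RL title also carries the letters UT, which the EomesCreER title lacks and whose meaning the titles do not give. Cre is driven from Eomes in EomesCreER mice, and the sources used here give neither the strain nor the way cells were selected. The title of RL e13 replicate 2 gives e13 and its age tag e14. Whether 2 replicates are 2 litters or 2 runs of 1 litter is not stated, so the p-values rest on a spread between libraries that may be technical. The libraries held 2676 cells at e16, 1046 and 741 in RL e14 replicates 1 and 2, and 706 and 1818 in RL e13 replicates 1 and 2, with medians of 10346 UMIs per cell at e16 and 15855 to 19970 in the RL libraries (UMIs, unique molecular identifiers, count molecules). Only 6 pairs of cells in different libraries shared a barcode.

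Reelin binds both receptors on the receiving cell, and the bound receptors lead Src family kinases such as Fyn to phosphorylate Dab1, which passes the signal to the cytoskeleton and is then degraded. In the developing cerebellum, cells of the rhombic lip lineage are a known source of reelin and Purkinje cells a known target. Mice without Reln, without Dab1 or without both receptors have a small cerebellum in which Purkinje cells stay in ectopic positions.

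Cells were sorted into classes by whether 1 or more UMIs of 6 genes were detected. Sox2 is a progenitor gene, Atoh1 a proneural factor that rhombic lip cells switch on, Barhl1 a homeobox gene found in granule cell development, Mapt a microtubule gene of neurons, Eomes a T-box gene of glutamatergic cells, and Lmx1a a gene of the roof plate and of brush cells. Sox2 progenitors had Sox2 and none of Atoh1, Barhl1, Eomes and Lmx1a, and Sox2 Atoh1 cells had Sox2 and Atoh1 without Eomes. Atoh1 progenitors had Atoh1 without Sox2, Mapt and Eomes, and Atoh1 Mapt cells differed from them by having Mapt. Barhl1 neurons had Barhl1 and Mapt without Atoh1, Sox2 and Eomes, and Eomes neurons had Eomes and Mapt and were split by Lmx1a. Levels are means over the cells of a class in 1 library, in CPM (counts scaled to a sum of 1000000), for classes with 20 or more cells. Differences were tested as log2(CPM + 5), which makes those of genes at low levels look smaller.

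Genes that set no class fitted these names in part. The summed level of 5 radial glia genes was 619 to 2010 CPM in Eomes neurons without Lmx1a, 1640 to 1687 in Atoh1 progenitors, 2367 to 5404 in Sox2 Atoh1 cells and 8496 to 14774 in Sox2 progenitors. A list of 3 genes of GABAergic interneurons summed to at most 10.7 CPM in any profile and microglial genes to at most 31.3. That list leaves out Ptf1a, a progenitor gene of the GABAergic lineage. Ptf1a ran from 4.39 to 141 CPM over Sox2 progenitors with or without a Reln UMI in the RL libraries. How many Sox2 progenitors belong to that lineage was not tested. A list of 3 genes of the reelin-rich Cajal-Retzius cells of the forebrain was, like Reln, higher in neurons than in Atoh1 progenitors. It summed to 360 to 560 CPM in Eomes neurons without Lmx1a and 324 to 490 in Barhl1 neurons. Sums were 151 to 181 in Atoh1 progenitors and 7.97 to 25.4 in Sox2 progenitors. Reln did not pass between these progenitors (log2 difference 0.08, limma, Benjamini-Hochberg adjusted p = 0.68), where the sums of the 3 genes did not overlap. Of these genes, Ebf3 was at 228 to 282 CPM and Nhlh2 at 121 to 299 in Eomes neurons without Lmx1a, while Trp73 stood at no more than 8.24 in any class. The part of this list in the Reln differences was not tested. RL e13 replicate 1 stands apart in its make-up: it held 279 Sox2 progenitors but 14 Atoh1 progenitors, 10 Eomes neurons without Lmx1a and no Barhl1 neuron, so that the comparisons of neurons do without it. Some classes share libraries and cells across comparisons (Atoh1 progenitors and Eomes neurons without Lmx1a each enter several), so these comparisons are not independent of each other.

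Reln was read in every class, at a higher level in neurons and a lower level in Atoh1 progenitors, Sox2 Atoh1 cells and Sox2 progenitors. Eomes cells without Mapt had 134 to 187 CPM, and Sox2 progenitors with Lmx1a had 136 and 137. Eomes neurons without Lmx1a had 335 CPM in RL e14 replicate 1, 433 in RL e14 replicate 2 and 306 in RL e13 replicate 2, Atoh1 Mapt cells had 146, 191 and 200 in the same libraries, and Atoh1 progenitors 133, 122 and 145. The neurons lay above both other classes in each library. Sox2 Atoh1 cells had 99.9 and 117 CPM in RL e14 replicates 1 and 2 and 113 and 122 in RL e13 replicates 1 and 2, against 95.1, 124, 73.2 and 169 in Sox2 progenitors of the same libraries. The ranges of Atoh1 progenitors, Sox2 Atoh1 cells and Sox2 progenitors overlap, and the Sox2 progenitors spread the most.

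Reln rose in Eomes neurons without Lmx1a relative to Atoh1 progenitors in 3 of 3 libraries (358 ± 66.5 against 133 ± 11.2 CPM, SD, n = 3). The log2 difference was 1.38 ± 0.11 (SE, limma, Benjamini-Hochberg adjusted p = 4e-07), in a comparison in which 43% of the genes tested were called. It rose by a like amount relative to Sox2 progenitors (1.45 ± 0.15, limma, Benjamini-Hochberg adjusted p = 1.4e-05), where 53% of genes were called. A share this high means that a call alone sets no member apart from the rest of the genes, so the sizes are given. Barhl1 neurons, counted with 10 or more cells per class so that 4 libraries entered, had 330 CPM at e16, 324 and 400 in RL e14 replicates 1 and 2 and 305 in RL e13 replicate 2. Atoh1 progenitors had 96.3, 133, 122 and 145 CPM in the same libraries, and the 2 classes did not overlap. The log2 difference for Reln was 1.42 ± 0.15 (limma, Benjamini-Hochberg adjusted p = 1e-04), with 23.3% of genes called.

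Before neurons, Reln did not pass the test. Atoh1 progenitors differed from Sox2 progenitors by a log2 difference of 0.08 ± 0.12 (limma, Benjamini-Hochberg adjusted p = 0.68), and Sox2 Atoh1 cells by 0.03 ± 0.16 (adjusted p = 0.92). Among neurons the 3 classes lay close together. Eomes neurons without Lmx1a stood at 299 CPM at e16, 335 in RL e14 replicate 1 and 306 in RL e13 replicate 2, against 330, 324 and 305 CPM in Barhl1 neurons of the same libraries (log2 difference -0.03 ± 0.10, limma, Benjamini-Hochberg adjusted p = 0.98). In that comparison 0.121% of genes were called, and Reln, Vldlr and Lrp8 were not among them. Dab1 was below the mean of 10 CPM required for a test. The classes are not fully parted: 3 brush cell genes summed to 27.5 to 424 CPM in Barhl1 neurons. The sums were 281 to 759 CPM in Eomes Lmx1a neurons. Barhl1 neurons at e16 also carried Lmx1a, as given below. Whether they include brush cells in which Eomes was missed was not tested. Eomes Lmx1a neurons had 277, 392 and 299 CPM of Reln at e16, in RL e14 replicate 2 and in RL e13 replicate 2, against 299, 433 and 306 in Eomes neurons without Lmx1a. They were lower in 3 of 3 libraries, but by a log2 difference of only -0.09 ± 0.07 (limma, Benjamini-Hochberg adjusted p = 0.65), with 1.54% of genes called.

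**Figure D1:**
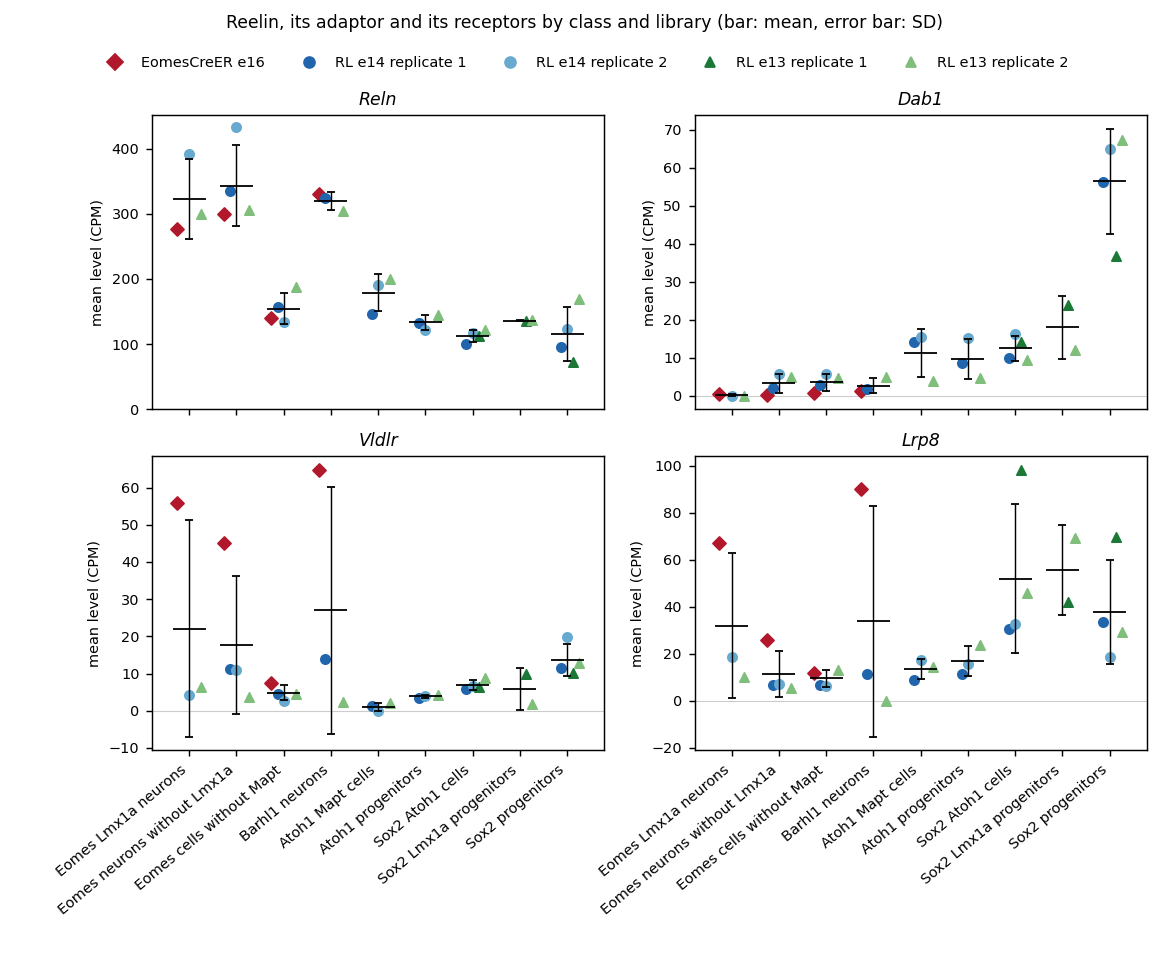
Mean level in CPM (vertical axes, 1 panel a gene) of Reln, Dab1, Vldlr and Lrp8 in 9 classes of cells (horizontal axes). Each point is 1 library with 20 or more cells of that class, the bar is the mean and the error bar the SD. Reln is highest in the neuron classes, Dab1 in Sox2 progenitors (36.9 to 67.3 CPM), and Vldlr and Lrp8 are high in neurons of the e16 library.

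Within cells that had Barhl1 or Eomes and no Sox2, Reln was higher in cells with more Mapt. In cells with no Mapt, more than 0 and up to 200, 200 to 800, and 800 or more CPM of Mapt, Reln stood at 153, 197, 364 and 517 CPM in RL e14 replicate 1. The same 4 steps gave 130, 218, 471 and 575 CPM in RL e14 replicate 2, and 172, 214, 356 and 623 in RL e13 replicate 2. At e16 they gave 141, 135, 212 and 313 CPM. The order is thus monotone in all 3 RL libraries shown, and at e16 apart from the first step.

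Free RNA from neurons was set beside the Reln read in Sox2 progenitors. There the ratio of Reln to Mapt was 9.25 and 8.03 in RL e14 replicates 1 and 2 and 8.37 and 12.2 in RL e13 replicates 1 and 2. In Eomes neurons without Lmx1a the ratio was 0.786, 0.847, 1.48 and 1.10 in the same libraries, where the value of RL e13 replicate 1 rests on 10 cells. If all Mapt in Sox2 progenitors came from such neurons, the Reln that came with it would be 8.08, 13.1, 12.9 and 15.3 CPM. The level read was 73.2 to 169 CPM. These values cover free RNA of such neurons only. Atoh1 progenitors, a class without Mapt, had 122 to 145 CPM of Reln, and Mapt cannot trace free RNA from them. The part of free RNA in the Reln of Sox2 progenitors was not tested.

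The promoter window of Reln is shown because Reln is the ligand and the gene with the step into neurons. The gene lies on the minus strand at chr5:21884454-22344702 (GRCm38, GENCODE annotation), where the antisense genes Gm10475 and Gm16110 overlap it, and the sources used here do not say whether counting used the strand. The window is RefSeq sequence of GRCm38.p6 at chr5:22344656-22344955, minus strand, from 250 bases before the start, and the capitals mark a match to the E-box letters CANNTG, which read the same on both strands.
Reln promoter: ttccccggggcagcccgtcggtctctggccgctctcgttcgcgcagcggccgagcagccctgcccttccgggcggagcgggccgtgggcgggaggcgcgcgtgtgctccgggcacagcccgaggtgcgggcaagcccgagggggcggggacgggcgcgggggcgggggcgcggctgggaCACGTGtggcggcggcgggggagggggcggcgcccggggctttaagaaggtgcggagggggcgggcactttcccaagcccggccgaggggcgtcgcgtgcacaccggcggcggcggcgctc
It holds 1 E-box. Such a match was in 72.3% of the 32851 promoter windows, with a median of 1 per window, so it sets Reln apart in no way.

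Dab1, the adaptor that a cell needs to read reelin through these receptors, was highest in Sox2 progenitors. It was low in every neuron class with 20 or more cells. Barhl1 neurons had 1.13 to 4.82 CPM in such libraries, and 25.4 in the 13 cells of RL e14 replicate 2. Atoh1 progenitors had 8.69 and 15.2 CPM in RL e14 replicates 1 and 2 and 4.71 in RL e13 replicate 2. Sox2 Atoh1 cells had 9.99 and 16.1 CPM in RL e14 replicates 1 and 2, and 14.2 and 9.44 in RL e13 replicates 1 and 2. Sox2 progenitors of the same libraries had 56.3, 65.0, 36.9 and 67.3 CPM. They lay above Atoh1 progenitors and Sox2 Atoh1 cells with no overlap.

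The log2 difference of Dab1 was -2.28 ± 0.20 in Atoh1 progenitors relative to Sox2 progenitors (limma, Benjamini-Hochberg adjusted p = 2.2e-05), lower in 3 of 3 libraries. Dab1 reached the limit of a mean of 10 CPM for a test only through Sox2 progenitors, and without that limit the adjusted p was 0.00035 (limma). In this comparison 31.8% of genes were called, of which 37.9% were higher in Atoh1 progenitors, or 52.2% with median-of-ratios scaling. In Sox2 Atoh1 cells, which still had Sox2, Dab1 had already fallen by 1.80 ± 0.20 on the log2 scale (limma, Benjamini-Hochberg adjusted p = 0.015), lower in 4 of 4 libraries. There 12.1% of genes were called, with 37.6% of the calls higher in Sox2 Atoh1 cells, or 49.2% with median-of-ratios scaling. Leaving out RL e14 replicate 1, RL e14 replicate 2 or RL e13 replicate 2 moved that adjusted p to 0.14, 0.064 and 0.097, with differences of -1.73, -1.83 and -1.63, while the genes called over the whole table went to 1, 7 and 1. Eomes neurons without Lmx1a had 1.85, 5.65 and 4.96 CPM of Dab1 in RL e14 replicates 1 and 2 and RL e13 replicate 2, a log2 difference of -2.91 ± 0.16 relative to Sox2 progenitors (limma, Benjamini-Hochberg adjusted p = 7.7e-08). Here too only Sox2 progenitors brought Dab1 to the limit, and without it the adjusted p was 5e-06 (limma). There 43.2% of calls were higher in the neurons, or 53.2% with median-of-ratios scaling.

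Counted as cells, 21.8% of Sox2 progenitors of the RL libraries had a Dab1 UMI once each cell was thinned to 5000 UMIs (95% Wilson interval 19.2 to 24.6, 45.3% before thinning at a median of 15616 UMIs). The share was 8.11% in Sox2 Lmx1a progenitors, 5.01% in Sox2 Atoh1 cells and 3.82% in Atoh1 progenitors. It was 2.42% in Eomes neurons without Lmx1a (6.14% before thinning at a median of 18244 UMIs) and 0 of 100 in Eomes Lmx1a neurons, which allows a share of up to 3%. The shares follow the order of the CPM levels. Intervals and limits of this kind cover counting error only. Over all cells of a library, 0.673% of cells at e16 had a Dab1 UMI before thinning, against 13.8% to 29.3% in the RL libraries, and the e16 library held 8 Sox2 progenitors. Sox2 progenitors with Lmx1a, which could be measured in the 2 RL e13 libraries only, had 23.8 and 12.1 CPM of Dab1 in replicates 1 and 2, against 36.9 and 67.3 in Sox2 progenitors.

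2 marker lists were, like Dab1, higher in Sox2 progenitors than in Sox2 Atoh1 cells and Atoh1 progenitors. The 5 radial glia genes were highest in Sox2 progenitors, as given above, and 4 genes that respond to tissue dissociation summed to 688 to 1036 CPM in Eomes neurons without Lmx1a, 509 to 600 in Atoh1 progenitors, 784 to 881 in Sox2 Atoh1 cells and 1027 to 2551 in Sox2 progenitors. The dissociation genes did not follow Dab1 in every class. They were higher in these Eomes neurons than in Atoh1 progenitors. In Sox2 Lmx1a progenitors they summed to 1315 to 2239 CPM, with Dab1 at 12.1 to 23.8. The part of both lists in the Dab1 difference was not tested. The 6 Purkinje cell genes, which mark the classical target of reelin, summed to 39.8 to 48.0 CPM in Atoh1 progenitors and 59.4 to 77.5 in Sox2 progenitors, and over all named classes they ran between 26.9 in an Eomes Lmx1a neuron profile and 158 in a Barhl1 neuron profile.

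Dab1 lies on the plus strand at chr4:103619359-104744844 and spans 1125486 bases. Its first promoter window in the RefSeq table is shown because this gene has the largest difference between progenitors and neurons of the 4. The window is chr4:103619250-103619549 on the plus strand of GRCm38.p6, with the E-box letters again in capitals.
Dab1 promoter: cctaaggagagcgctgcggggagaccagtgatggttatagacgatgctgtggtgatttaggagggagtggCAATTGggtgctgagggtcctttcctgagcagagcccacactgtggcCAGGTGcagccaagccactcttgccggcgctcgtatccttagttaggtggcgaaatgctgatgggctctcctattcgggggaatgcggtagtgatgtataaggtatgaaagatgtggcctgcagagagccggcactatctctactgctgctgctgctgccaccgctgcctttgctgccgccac
It holds 2 matches, CAATTG and CAGGTG, and no match to the SOX core ACAATG searched on both strands, which was in 12.6% of windows.

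**Figure D2:**
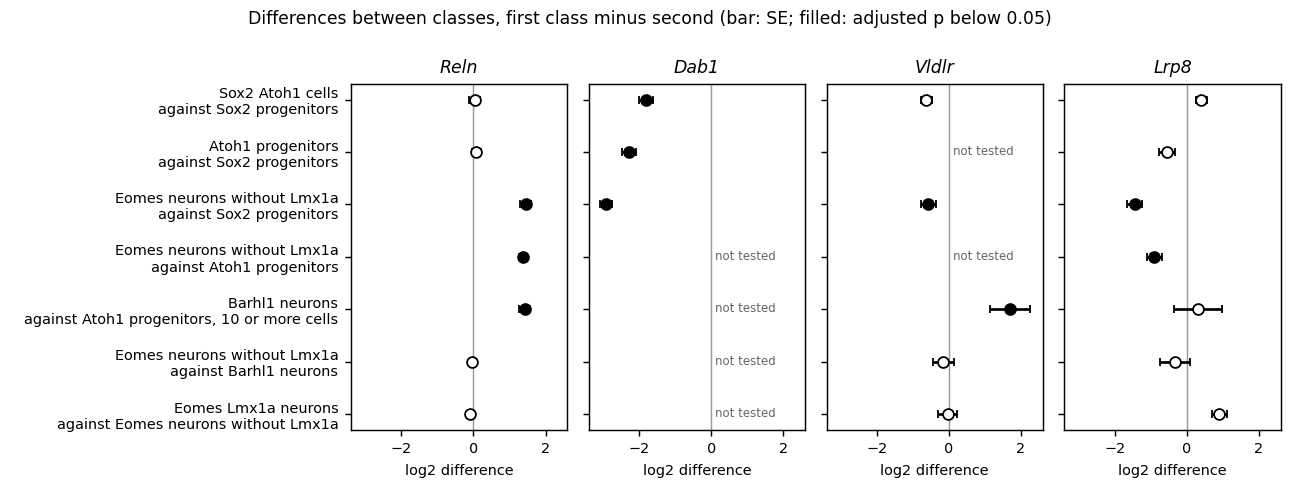
Log2 differences on the log2(CPM + 5) scale (horizontal axes, 1 panel a gene), first class minus second, for 7 comparisons of classes. Points are limma estimates, bars are SE, and filled points passed an adjusted p of 0.05. Reln passes in the 3 comparisons of neurons with progenitors. Dab1 lies between -2.91 and -1.80 in the comparisons with Sox2 progenitors. In the others it fell below the limit of 10 CPM for a test, and without that limit it lay between -0.67 and -0.03.

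The receptors had 2 patterns. Vldlr, which also binds other ligands and lipoproteins, was low in the progenitors of the RL libraries. Sox2 Atoh1 cells had 5.76 and 6.55 CPM in RL e14 replicates 1 and 2, and 6.42 and 8.78 in RL e13 replicates 1 and 2, against 11.5, 19.7, 10.3 and 12.9 in Sox2 progenitors of the same libraries. The 2 classes did not overlap, but the log2 difference of -0.63 ± 0.16 did not pass (limma, Benjamini-Hochberg adjusted p = 0.054), though it did without RL e13 replicate 1 (-0.70, adjusted p = 0.022). Vldlr reached the limit of 10 CPM for a test only through Sox2 progenitors here, so neither p-value is support. Atoh1 progenitors had 3.44, 3.94 and 4.17 CPM in RL e14 replicates 1 and 2 and RL e13 replicate 2, below all Sox2 progenitors, and the gene fell below the limit of 10 CPM for a test there. Eomes neurons without Lmx1a had 11.2, 11.1 and 3.58 CPM in the same libraries, lower than Sox2 progenitors in 3 of 3 (log2 difference -0.57 ± 0.22, limma, Benjamini-Hochberg adjusted p = 0.046). That call was lost under 8 alternatives, with adjusted p-values from 0.056 to 0.41, among them without RL e13 replicate 2 (-0.33, adjusted p = 0.34). These neurons had a mean of 8.60 CPM, so Vldlr reached the limit of 10 CPM only through Sox2 progenitors and the call is no support. Without that limit the adjusted p was 0.094 (limma).

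Vldlr in neurons depended on the library. Barhl1 neurons had 64.8 CPM at e16, 14 and 33.7 in RL e14 replicates 1 and 2 and 2.24 in RL e13 replicate 2, against 0, 3.44, 3.94 and 4.17 CPM in Atoh1 progenitors. Barhl1 neurons were higher in 3 of the 4 libraries, with a log2 difference of 1.69 ± 0.56. Vldlr reached the limit of 10 CPM only through the Barhl1 neurons, so its adjusted p of 0.048 (limma, Benjamini-Hochberg) is no support, and without that limit it was 0.16. The 0 at e16 is 0 UMIs in 12 cells, where 3 UMIs would be 14.2 CPM. The difference was 0.98 without the e16 library (adjusted p = 0.15), 1.86 without RL e14 replicate 1 (0.073) and 1.54 without RL e14 replicate 2 (0.18). The step also showed along Mapt: from no Mapt to 800 CPM or more, Vldlr stood at 8.84, 16.9, 39.2 and 58.5 CPM at e16, 3.54, 2.75, 13.8 and 28.8 in RL e14 replicate 1, 3.67, 2.25, 7.0 and 23.2 in RL e14 replicate 2, and 3.71, 2.44, 6.0 and 6.30 in RL e13 replicate 2. The highest level was in the cells with most Mapt at e16 and in both RL e14 libraries, with 1209, 14 and 28 UMIs behind it. In RL e13 replicate 2 the last 2 steps rest on 8 and 4 UMIs and cannot be put in order.

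Lrp8, the second reelin receptor, was highest in cells with Sox2 in the RL libraries. Sox2 Atoh1 cells had 30.6 and 32.8 CPM in RL e14 replicates 1 and 2, and 98.2 and 46.0 in RL e13 replicates 1 and 2, against 33.7, 18.6, 69.6 and 29.1 in Sox2 progenitors of the same libraries, a log2 difference of 0.40 ± 0.14 (limma, Benjamini-Hochberg adjusted p = 0.12). RL e13 replicate 1 was the highest library for both classes, outside the range of the other 3. Atoh1 progenitors had 11.4, 15.8 and 23.7 CPM in RL e14 replicates 1 and 2 and RL e13 replicate 2, lower than Sox2 progenitors in 3 of 3 libraries (log2 difference -0.55 ± 0.21, limma, Benjamini-Hochberg adjusted p = 0.079). It passed without RL e14 replicate 2 (-0.74, limma adjusted p = 0.0012) and without RL e13 replicate 2 (-0.71, adjusted p = 0.048).

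In Eomes neurons without Lmx1a, Lrp8 stood at 6.98, 7.08 and 5.50 CPM in RL e14 replicates 1 and 2 and RL e13 replicate 2, below every Sox2 progenitor and Atoh1 progenitor profile. It fell by 1.45 ± 0.20 on the log2 scale relative to Sox2 progenitors (limma, Benjamini-Hochberg adjusted p = 9.2e-05). In this and the next comparison Lrp8 reached the limit of 10 CPM only through the progenitors. Without that limit the adjusted p-values were 0.00092 and 0.017 (limma). Relative to Atoh1 progenitors it fell by 0.90 ± 0.21 (limma, Benjamini-Hochberg adjusted p = 0.0029), a call that ended with classes set on thinned cells (-0.23, adjusted p = 0.73), with Mapt at 3 or more UMIs (-0.12, adjusted p = 0.85) and in 1 fit over all classes (-0.97, adjusted p = 0.1). The level turned up again in the cells with most Mapt. Over the 4 Mapt steps Lrp8 stood at 7.64, 8.15, 1.03 and 22.4 CPM in RL e14 replicate 1, at 13.1, 10.9, 2.91 and 23.2 in RL e14 replicate 2, and at 16.6, 9.92, 1.18 and 17.0 in RL e13 replicate 2. The third step was the lowest in all 3, with 1, 3 and 2 UMIs of Lrp8 behind it against 10, 27 and 11 behind the fourth, and in RL e13 replicate 2 the fourth step lay no higher than the first beyond counting error, so the lowest levels are near the limit of detection. At e16 the 4 steps had 11.9, 11.5, 22.1 and 66.1 CPM.

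**Figure D3:**
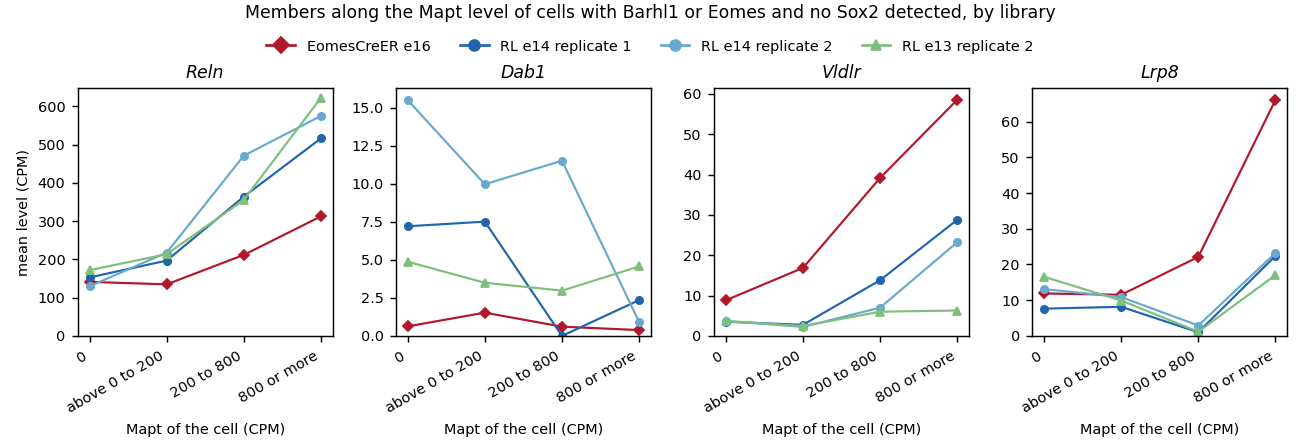
Mean level in CPM (vertical axes, 1 panel a gene) of the 4 genes in cells with Barhl1 or Eomes and without Sox2, grouped by the Mapt level of the cell (horizontal axes, 4 steps in CPM). Each line is 1 library, and steps with 20 or more cells are drawn. Reln reaches 517 to 623 CPM in the RL libraries and 313 at e16 in the last step, and Lrp8 of the RL libraries is lowest in the third step.

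Eomes Lmx1a neurons were compared with Eomes neurons without Lmx1a because Lmx1a marks the brush cell lineage among Eomes cells. Lrp8 had 67.1 CPM at e16, 18.6 in RL e14 replicate 2 and 10.1 in RL e13 replicate 2 in Eomes Lmx1a neurons, against 26, 7.08 and 5.50 in Eomes neurons without Lmx1a. It was higher in 3 of 3 libraries but did not pass (log2 difference 0.90 ± 0.20, limma, Benjamini-Hochberg adjusted p = 0.079), and it passed without RL e13 replicate 2 (1.09, adjusted p = 0.038). Vldlr had 55.7, 4.28 and 6.28 CPM in Eomes Lmx1a neurons at e16, in RL e14 replicate 2 and in RL e13 replicate 2, against 45.0, 11.1 and 3.58 in Eomes neurons without Lmx1a, with no common direction (log2 difference -0.04 ± 0.26, limma, Benjamini-Hochberg adjusted p = 0.97). Between Eomes Lmx1a neurons and Barhl1 neurons, with 10 or more cells per class and 4 libraries, none of the 3 genes tested passed, while 2.67% of all genes were called.

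Neurons of the e16 library and of the RL libraries were set side by side without a test, since 1 library stands for e16 and age, mouse line and cell selection cannot be told apart. Both receptors were read in a larger share of cells at e16. At 5000 UMIs per cell, 22.4% of Eomes Lmx1a neurons had a Vldlr UMI at e16 (95% Wilson interval 20.4 to 24.5), against 3.00% in the 4 RL libraries together (1.03 to 8.45). For Eomes neurons without Lmx1a the shares were 17.1% (14.5 to 19.9) at e16 and 3.52% (2.18 to 5.64) in the RL libraries, and for Barhl1 neurons 22.1% (15.2 to 31.0) and 1.72% (0.305 to 9.14). These intervals count cells and leave out the spread between libraries: the 3 RL libraries with 20 or more cells lay between 0.518% and 7.2% for Vldlr in Eomes neurons without Lmx1a and between 0.8% and 3.63% for Lrp8, below the e16 library.

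Lrp8 behaved alike, with 24.8% (22.7 to 27) of Eomes Lmx1a neurons at e16 against 5.0% (2.15 to 11.2) in the RL libraries. The shares were 11.7% (9.58 to 14.2) and 2.64% (1.51 to 4.55) in Eomes neurons without Lmx1a, and 32.7% (24.4 to 42.2) and 8.62% (3.74 to 18.6) in Barhl1 neurons. Before thinning the Eomes Lmx1a neurons gave 36.2% at e16 and 9.0% in the RL libraries for Vldlr, and 41.2% and 13% for Lrp8, at medians of 9969 and 16689 UMIs. In Eomes cells without Mapt the thinned shares at e16 were low for both receptors, 1.77% for Vldlr and 3.54% for Lrp8, against 2.54% and 4.79% in the RL libraries. The shares of cells with Reln had no such gap: 69.2% of Eomes Lmx1a neurons at e16 and 76.0% in the RL libraries, 73.0% and 75.4% of Eomes neurons without Lmx1a, and 76.9% and 75.9% of Barhl1 neurons. Shares this high can hide a difference in level.

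Mapt moved with this difference, since 1926 of the 2622 cells in the Mapt steps had 800 CPM or more at e16, against 33 of 457 in RL e14 replicate 1, 57 of 354 in RL e14 replicate 2 and 29 of 560 in RL e13 replicate 2. Within that step Vldlr was at 58.5 CPM at e16, against 28.8, 23.2 and 6.30 in the 3 RL libraries, which rest on 14, 28 and 4 UMIs. Lrp8 was at 66.1 against 22.4, 23.2 and 17.0. Reln was lower at e16 within that step, at 313 CPM against 517, 575 and 623. The step has no upper limit, so Mapt was not matched within it. The part of Mapt in these differences was not tested. The e16 Barhl1 neurons also carried 178 CPM of Lmx1a, a brush cell gene.

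**Figure D4:**
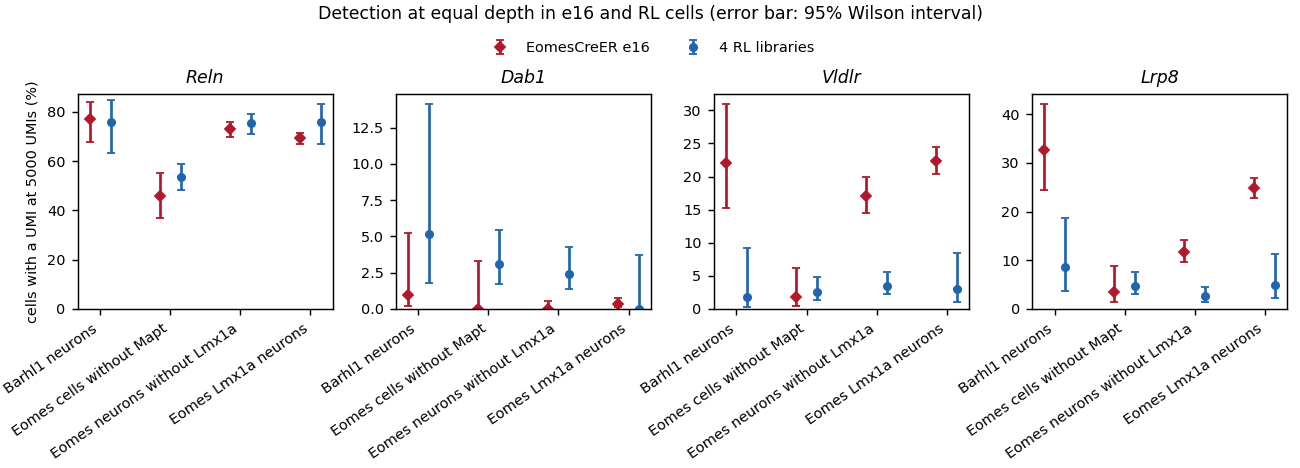
Share of cells with a UMI of each gene at 5000 UMIs per cell (vertical axes, percent, 1 panel a gene) in 4 classes of cells (horizontal axes), at e16 (diamonds) and in the 4 RL libraries together (circles). Error bars are 95% Wilson intervals. Vldlr and Lrp8 lie higher at e16 in the 3 neuron classes and not in Eomes cells without Mapt, and Reln lies between 46.0% and 76.9% in both.

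The ages of the RL libraries were compared in progenitors. In Sox2 progenitors the e14 libraries had 110 ± 20.4 CPM of Reln and the e13 libraries 121 ± 68.0 (SD, n = 2 each), and for Dab1 the means were 60.6 ± 6.14 at e14 and 52.1 ± 21.5 at e13. Vldlr stood at 15.6 ± 5.81 at e14 and 11.6 ± 1.85 at e13. Lrp8 stood at 26.1 ± 10.7 at e14 and 49.3 ± 28.6 at e13 (log2 difference -0.74 ± 0.39, limma, Benjamini-Hochberg adjusted p = 0.57). No gene of the whole table was called here (0%), with limma at an adjusted p of 0.05, while 760 of 8407 genes had an unadjusted p under 0.05. Without RL e13 replicate 2, whose age is in doubt, Lrp8 was -1.30 with an adjusted p of 0.0029, a comparison of 2 libraries with RL e13 replicate 1 alone. In Atoh1 progenitors the only e13 library is the one whose age is in doubt, so the fit, which called 0.284% of genes, is not read as an effect of age and values are given. Reln stood at 128 ± 7.49 CPM at e14 and 145 at e13, and Lrp8 at 13.6 ± 3.12 and 23.7.

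The other genes of the pathway were taken from a list of 51 genes by role. In Atoh1 progenitors relative to Sox2 progenitors, 4 of the 39 tested rose and 15 fell, where 31.8% of all genes tested were called, with a median log2 difference of -0.13 for the list and -0.06 over all genes. Among regulators of receptor turnover, Mylip, a ubiquitin ligase (IDOL) known to send LDL receptor family members to degradation, fell to 28.1 ± 6.46 CPM in Atoh1 progenitors, against 52.3 ± 4.14 in Sox2 progenitors (SD, n = 3, log2 difference -0.81 ± 0.15, limma, Benjamini-Hochberg adjusted p = 0.0028). Of the 5 extracellular proteases listed, 2 were tested and both fell. Plat, which encodes tissue plasminogen activator, was at 6.61 ± 1.05 CPM against 59.2 ± 4.21. Plat reached the limit of 10 CPM for a test only through Sox2 progenitors, so its call is no support. Bmp1 had a log2 difference of -0.65 ± 0.15 (limma, Benjamini-Hochberg adjusted p = 0.01). Lrp1, Efnb2 and Efnb3, the kinase gene Yes1, the small GTPase genes Rap1a and Rap1b, and the adhesion genes Itgb1 and Cdh2 fell too.

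In Eomes neurons without Lmx1a relative to Atoh1 progenitors, 21 of the 35 list genes tested rose and 1 fell, where 43% of all genes were called, with a median of 0.38 for the list and 0.0050 over all genes. Mylip, the gene that fell, was at 10.0 ± 0.840 CPM in these neurons (-1.12 ± 0.17, limma, Benjamini-Hochberg adjusted p = 0.00012). Fyn, the kinase of Dab1, was at 139 ± 11.1 CPM in these neurons and 73.4 ± 4.50 in Atoh1 progenitors (0.88 ± 0.10, limma, Benjamini-Hochberg adjusted p = 5.3e-06). The cytoskeletal arm gave the largest differences: Cdk5r1, the p35 activator of Cdk5, had 160 ± 34 CPM in the neurons against 38.1 ± 1.81 (1.91 ± 0.12), and Map1b, a microtubule protein, 2875 ± 118 against 891 ± 99.6 (1.69 ± 0.09). Their adjusted p-values were 3.9e-08 and 7.2e-09 (limma with Benjamini-Hochberg adjustment). The ubiquitin ligase adaptor gene Socs7, which acts on phosphorylated Dab1, rose by 0.51 ± 0.15 (limma, Benjamini-Hochberg adjusted p = 0.012).

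In Sox2 Atoh1 cells relative to Sox2 progenitors 1 of 41 tested rose and 9 fell, Plat and Mylip among the 9, where 12.1% of all genes were called. Eomes neurons without Lmx1a relative to Sox2 progenitors had 15 of 38 higher and 14 lower, where 53% of all genes were called. Between Eomes Lmx1a neurons and Eomes neurons without Lmx1a, 2 of 34 passed, where 1.54% of all genes were called, both lower, among them the ephrin receptor gene Ephb2 (-1.16 ± 0.13, limma, Benjamini-Hochberg adjusted p = 0.013).

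**Figure D5:**
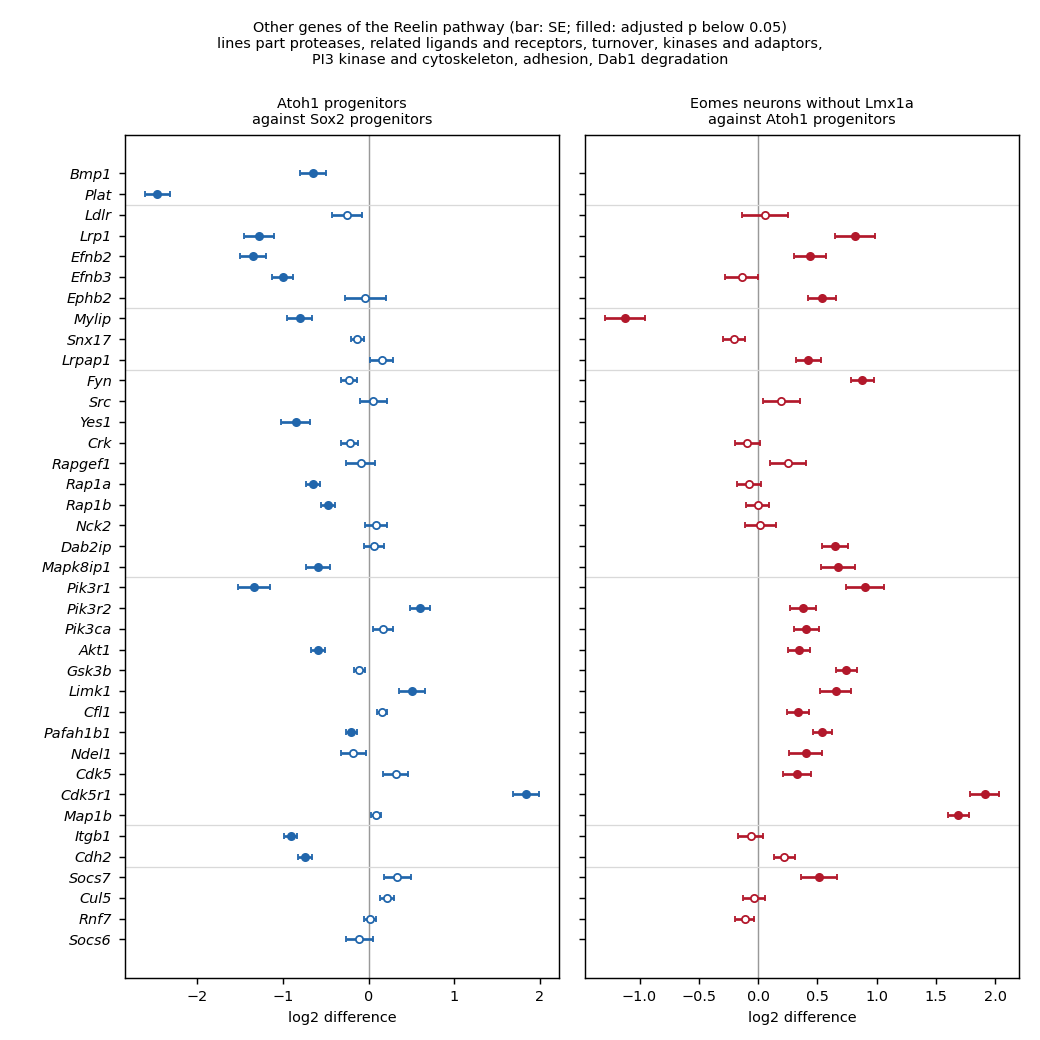
Log2 differences on the log2(CPM + 5) scale (horizontal axes) of reelin pathway genes that were tested and are reported here (vertical axis, grouped by role). The left panel shows Atoh1 progenitors minus Sox2 progenitors and the right panel Eomes neurons without Lmx1a minus Atoh1 progenitors. Bars are SE and filled points passed an adjusted p of 0.05. Mylip lies at -0.81 on the left and -1.12 on the right, where Cdk5r1 reaches 1.91.

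Genes with a pattern most like each member were found by Pearson's r over 34 profiles of classes and libraries, which share libraries and depth, so r is a description. Reln was most like Erbb4 (r = 0.941), Uchl1 (0.929) and Tubb4a (0.928), and Erbb4, a receptor of neuregulins, had a mean of 209 CPM in Eomes neurons without Lmx1a and 64.9 in Sox2 progenitors. Dab1 was most like Acot1 (0.941), Cd44 (0.933) and Tst (0.924), and the thioesterase gene Acot1 had 9.92 CPM in Eomes neurons without Lmx1a and 274 in Sox2 progenitors. Vldlr was most like Zic1 (0.812), Tprgl (0.806) and Clstn1 (0.803), and Lrp8 most like Clip1 (0.853). The best match of each receptor was weaker than that of the ligand or the adaptor. Between members, Reln and Dab1 had r = -0.655.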

How the data were processed

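The deposited table held natural log values, ln(1 + 10000 × UMI count / total of the cell), for 15971 genes in 6987 cells. The scale was worked out from the values deposited by the authors: after back-transformation each cell summed to 10000, and all 29540669 values above 0 were whole UMI counts within 0.01. Reads went through Cell Ranger to build mm10, per the submitters' processing notes, which give no version, and 10x v3 and v3.1 kits per the labels' protocols. A second deposited file, whose batch names are not numbers (unit other), gave each cell's library. The sources used here do not give the authors' filters or doublet removal, and no doublet caller was run. 4 batch names matched a title, and the one left over was taken as the e16 library.

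The 4 genes, the classes and the gene lists were chosen with earlier results of these data known. The planned comparisons named the 4 genes throughout and any gene of the pathway list that passed. Values were averaged over cells per class and library (20 or more cells), scaled to 1000000 and compared as log2(CPM + 5) with limma 3.58.1 (trend, R 4.3.3). Each library was a block because the classes compared are different cells of the same library. A mean of at least 10 CPM was required of a gene. P-values were Benjamini-Hochberg adjusted over all of them, at 0.05 and in 3 or more libraries. 3 planned comparisons had fewer (Barhl1 neurons with Atoh1 progenitors, Eomes Lmx1a neurons with Barhl1 neurons, other Mapt neurons with Barhl1 neurons), and the first 2 were tested with 10 or more cells. 5 comparisons were added after class sizes or levels were seen. Thinning to 5000 UMIs left out 49 cells, 26 of them from the e16 library. The library totals were 13607965 to 33502151 UMIs. The limma step was tested on simulated data with known changes. Some results that passed, of the pathway list and of the split by Reln, are not reported here by name, and the counts include them.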

Additional observations from a re-analysis of the deposited data

Results flagged for a closer look

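Directions that differ between libraries were looked for in each comparison of classes. None of these differences was tested, and 1 library stands for e16. In Barhl1 neurons relative to Atoh1 progenitors, Vldlr had log2 differences of 3.8 at e16, 1.17 and 2.12 in RL e14 replicates 1 and 2 and -0.34 in RL e13 replicate 2, and Lrp8 had 3.18 at e16 and -2.52 in RL e13 replicate 2. In Eomes neurons without Lmx1a relative to Barhl1 neurons, Vldlr had -0.48 at e16, -0.24 in RL e14 replicate 1 and 0.25 in RL e13 replicate 2, and Lrp8 had -1.62, -0.44 and 1.07. In Eomes Lmx1a neurons relative to Barhl1 neurons, Vldlr had -0.20 at e16 and 0.64 in RL e13 replicate 2, and Lrp8 had -0.40 and 1.60. In Eomes Lmx1a neurons relative to Eomes neurons without Lmx1a, Vldlr had 0.28 at e16, -0.79 in RL e14 replicate 2 and 0.40 in RL e13 replicate 2. RL e13 replicate 2 enters each of these, and its 21 Barhl1 neurons held 0 UMIs of Lrp8 in 326924 UMIs in all.

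2 values lay far from the other 3 libraries of their comparison by Dixon's criterion, which chance alone meets in about 1 of 20 groups. They were the same 1.60 of Lrp8 in RL e13 replicate 2, and the Dab1 difference of -0.64 in RL e14 replicate 1 between Sox2 progenitors with and without a Reln UMI.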

How the results depend on the processing

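37 results of the 4 genes were recomputed under alternatives, which gave 431 values. Of these values 362 were counted as unchanged, and 33 turned their sign, none of them past the threshold before or after. Unchanged means the same direction and side of the threshold. For the untested comparisons of Reln, which have no p-value, it means a value close to the one reported. Under all of its alternatives, Reln passed in Eomes neurons without Lmx1a relative to both progenitor classes and in Barhl1 neurons, Dab1 in Atoh1 progenitors and these Eomes neurons relative to Sox2 progenitors, and Lrp8 in these Eomes neurons relative to Sox2 progenitors. The cause of each change below was not tested. Depth limits Dab1 and Vldlr most, with fewer than 10 UMIs behind 14 and 11 of 31 levels. Thinning lowered 38 of 40 shares.

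Without the library as a replicate block, Vldlr lost its call in Eomes neurons without Lmx1a relative to Sox2 progenitors (-0.57, limma adjusted p = 0.11) and in Barhl1 neurons relative to Atoh1 progenitors (1.69, adjusted p = 0.074), and no other call of the 4 genes changed. Nothing states that the e14 and e13 numbers mark a shared animal or batch: with a replicate block, 50 genes were called in Sox2 progenitors in place of 0 and Lrp8 stood at -0.74 (limma adjusted p = 0.16).

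Vldlr in Eomes neurons relative to Sox2 progenitors also ended with 1 fit (-0.44), Mapt at 3 or more UMIs (-0.25), thinned cells (-0.40), median-of-ratios scaling (-0.49), no filter (-0.57) and a pseudocount of 1 (-0.81). Vldlr in Barhl1 neurons ended with merged Sox2 Atoh1 cells (1.11), no filter (1.69), a pseudocount of 1 (2.48) and without the deepest 5% of cells (1.0). Lrp8 in Eomes neurons relative to Atoh1 progenitors ended with 1 fit (-0.97), Mapt at 3 or more (-0.12) and thinned cells (-0.23). Calls were gained by Lrp8 in Atoh1 progenitors relative to Sox2 progenitors with Mapt at 3 or more (-0.70) and by Vldlr in Sox2 Atoh1 cells without the deepest cells (-0.65). Leaving out 1 library gained calls for Lrp8 in Atoh1 progenitors (-0.74 without RL e14 replicate 2, -0.71 without RL e13 replicate 2), in Eomes relative to Barhl1 neurons (-1.03 without RL e13 replicate 2, limma adjusted p = 0.043), between the Eomes classes (1.09) and at e14 relative to e13 (-1.30), both also without RL e13 replicate 2, and for Vldlr in Sox2 Atoh1 cells (-0.70 without RL e13 replicate 1).

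Signs turned for Reln in Eomes neurons relative to Barhl1 neurons in 1 fit (0.053), thinned cells (0.051) and sums of UMIs (0.063), in Eomes Lmx1a relative to Barhl1 neurons with thinned cells (0.12), in Sox2 Atoh1 cells with thinned cells (-0.048), and at e14 relative to e13 by age tag (0.75) or median-of-ratios scaling (0.025). They turned for Lrp8 in Atoh1 progenitors with merged cells (0.24) or thinned cells (0.0026), in Barhl1 neurons relative to Atoh1 progenitors with merged cells (-0.21), a pseudocount of 1 (-0.031) or without the deepest cells (-0.65), in Eomes relative to Barhl1 neurons with a pseudocount of 1 (0.11), and by Reln detection at 50 or more cells (-0.11) or thinned (-0.42). Dab1 by Reln detection at 50 or more cells was -0.054, and Vldlr between the Eomes classes with sums of UMIs 0.023.

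Leaving out 1 library gave, in Atoh1 relative to Sox2 progenitors, -0.12 to 0.22 for Reln and -0.74 to -0.21 for Lrp8, and in Sox2 Atoh1 cells -0.16 to 0.19 for Reln, -2.03 to -1.63 for Dab1 and -0.71 to -0.63 for Vldlr. In Eomes relative to Barhl1 neurons it gave -0.068 to 0.027 for Reln and -1.03 to -0.27 for Lrp8, in Eomes neurons relative to Sox2 progenitors -0.84 to -0.33 for Vldlr, and between the Eomes classes -0.26 to 0.34 for Vldlr and 0.75 to 1.09 for Lrp8. In Barhl1 neurons relative to Atoh1 progenitors the ranges were 0.98 to 2.36 for Vldlr and -0.64 to 1.25 for Lrp8, and in Eomes Lmx1a relative to Barhl1 neurons -0.78 to 0.13 and -0.33 to 0.35. By Reln detection they were -0.054 to 0.24 for Dab1 and -0.11 to 0.21 for Lrp8. At e14 relative to e13 they were -0.62 to 0.54 for Reln, -0.14 to 0.65 for Dab1, -0.00015 to 0.58 for Vldlr and -1.30 to -0.18 for Lrp8. A lone library is assumed to vary like the others in these fits.

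Untested at 20 or more cells, Reln in Barhl1 neurons relative to Atoh1 progenitors moved to 0.99 with sums of UMIs, 1.55 with thinned cells, 1.88 with Mapt at 3 or more and 1.41 with merged cells, and in other Mapt neurons relative to Barhl1 neurons to -0.19 with sums and 0.19 with thinned cells.

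Counts of called genes ran over the alternatives from 1162 to 3387 in Atoh1 relative to Sox2 progenitors (2683 as reported), 1 to 2442 in Sox2 Atoh1 cells (1020), 2323 to 4407 in Eomes neurons relative to Atoh1 progenitors (3548), 1 to 139 in Eomes relative to Barhl1 neurons (10), 1 to 286 between the Eomes classes (127), 1025 to 3371 in Barhl1 neurons relative to Atoh1 progenitors (1940), 1 to 348 in Eomes Lmx1a relative to Barhl1 neurons (221), 1 to 12 by Reln detection (4), 0 to 151 between ages in Atoh1 progenitors (23) and 0 to 278 in Sox2 progenitors (0), where 278 is without RL e13 replicate 2.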

Other observations

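Sox2 progenitors with and without a Reln UMI were compared within 4 RL libraries, a split chosen after the levels were seen. Besides Reln, which made the split, 3 genes passed, all lower in the cells with Reln, and 0.0475% of 8417 genes were called. Hes6, a Notch pathway gene of differentiating cells, stood at 176 CPM in cells with Reln and 306 in cells without (log2 difference -0.80 ± 0.10, limma, Benjamini-Hochberg adjusted p = 0.0018), and Cdkn1c, a cell cycle inhibitor, at 280 and 518 (-0.80 ± 0.12, adjusted p = 0.016). Both were named after their values were seen. None of the 3 passed without RL e14 replicate 1, without the filter on low values or without the library as a block. Depth moved with the split, at medians of 14854, 14629, 18537 and 15607 UMIs in cells with Reln against 13982, 12692, 16331 and 12461 in cells without (RL e14 replicates 1 and 2, RL e13 replicates 1 and 2), and its part in the result was not tested. Dab1 had 45.2, 68.1, 39.5 and 69.0 CPM in cells with Reln of these libraries and 73.2, 56.8, 32.8 and 57.6 in cells without, with no common direction (log2 difference 0.02 ± 0.16, limma, Benjamini-Hochberg adjusted p = 1).

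Reln and Dab1 were also read in the same Sox2 progenitors. At 5000 UMIs per cell, both had a UMI in 6.25% and 13.1% of cells in RL e14 replicates 1 and 2 and in 2.53% and 15.2% in RL e13 replicates 1 and 2. The products of the shares of each gene were 7.78%, 11.0%, 3.70% and 14.8%, above the shares of cells with both in 2 libraries and below them in the other two.

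Within the Eomes Lmx1a neurons of the e16 library, Reln and both receptors were set against 2 further genes, with 1 library and no test. Cells with Calb2, a calcium-binding protein of brush cells, had 347 CPM of Reln, 97.8 of Lrp8 and 63.7 of Vldlr (366 cells), against 256, 58.2 and 53.4 in those without (1257 cells). The 61 cells with Mki67, a gene of cycling cells, had 127 CPM of Reln, 36.9 of Lrp8 and 28.2 of Vldlr, against 282, 68.3 and 56.8 in the 1562 cells without.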
